A study of Homo sapiens with 14 samples.

Results

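The BCL2 family decides whether a cell opens the outer membrane of its mitochondria and dies by apoptosis. The 10 members described here fill 3 roles: BAX and BAK1 are the effectors that form the pore, BCL2, BCL2L1 and MCL1 are the survival proteins that hold them back, and BCL2L11 (BIM), BBC3 (PUMA), PMAIP1 (NOXA), BID and BAD are the BH3-only proteins that block the survival proteins or trigger the effectors. Every probe set annotated to these genes was taken, which gave 33 of the 54675 probe sets on the array, 32 of them annotated to 1 gene. A probe set was tested if 3 or more of the 14 arrays showed a log2 value of 5 or higher, which 19 member probe sets and 19816 probe sets in all met.

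RNA came from HEK293, a human embryonic kidney line that carries adenoviral early genes, including that of a BCL2-like inhibitor of cell death. Cells transfected with HA-tagged HOXD9 gave 4 lines (the mix, which is the selected population, and clones a, b and c), set against 3 arrays of cells with the HA-tag vector. Cells transfected with V5-tagged HOXD13 gave 4 lines of the same make-up, set against 3 arrays of cells with the V5-tag vector. All were selected with G418, which kills cells that lack the plasmid's resistance gene. Each clone came out of the mixed population of its gene, so the 4 lines of a HOX gene are not independent, and the labels do not say how the vector cultures were separated: p-values measure only the spread between these samples, which may be technical. HOXD9 and HOXD13 are homeodomain transcription factors, and the question here is what level each member had with either factor present.

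Expression is given as GCRMA values (log2), and the arrays of each tag had been normalized apart from the other, so levels are compared only within a tag. The plasmid genes were read in the lines named for them: the brighter HOXD9 probe set (205605_at) lay between 6.65 and 7.76 in HOXD9 lines, against 2.52 to 2.83 in HA vectors, and the brightest HOXD13 probe set (207397_s_at) between 12.24 and 12.59 in HOXD13 lines, against 6.84 to 7.01 in V5 vectors. The dimmer HOXD9 probe set (205604_at) was 4.33 to 4.54 in HOXD9 lines, against 4.20 to 4.24 in HA vectors (adjusted p = 0.653). On the HOXD13 probe set 236681_at, clone c at 8.87 lay below the V5 vectors (8.93 to 8.95) and the other HOXD13 lines above 10. Of 8 HEK293 marker genes 6 passed the filter; PAX2 reached at most 4.89 and NEFM 2.42. No blood marker, 1 of 8 fibroblast markers (COL1A1) and 1 of 4 squamous epithelial markers (SFN) passed the filter. HOX lines were more variable than vectors: for the members tested the median SD was 0.30 in HOXD9 lines, 0.05 in HA vectors, 0.38 in HOXD13 lines and 0.06 in V5 vectors.

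Both BAX probe sets were higher in all HOXD9 lines and lower in all HOXD13 lines than in their vectors. The fall was called on both. The rise was called on 1, and that call was lost under 14 of 23 alternatives. With HOXD13, 1 of 3 tested BID probe sets also fell and 2 of 4 tested BCL2L11 probe sets rose, though on 1 of these HOXD13 clone c lay at the level of the V5 vectors. With HOXD9, 1 of the 19 member probe sets rose and none fell at an adjusted p under 0.05 (limma, Benjamini-Hochberg over all 19816 probe sets), against 0.0202% of all probe sets called higher and 0.0101% called lower. At an unadjusted p under 0.05 there were 7 member probe sets, against 20.6% of all probe sets. With HOXD13, 2 rose and 3 fell, against 2.49% of all probe sets called higher and 6.19% called lower, and 10 had an unadjusted p under 0.05, against 25.1%. The direct test of the difference took the HOXD13 effect minus the HOXD9 effect. It called 1 member probe set higher and 3 lower, against 1.06% and 5.5% of all probe sets. Of the member probe sets 10 had an unadjusted p under 0.05, against 23.1%. Where a member had several probe sets they did not always move alike, and each tested probe set is given by its own values.

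**Figure D1:**
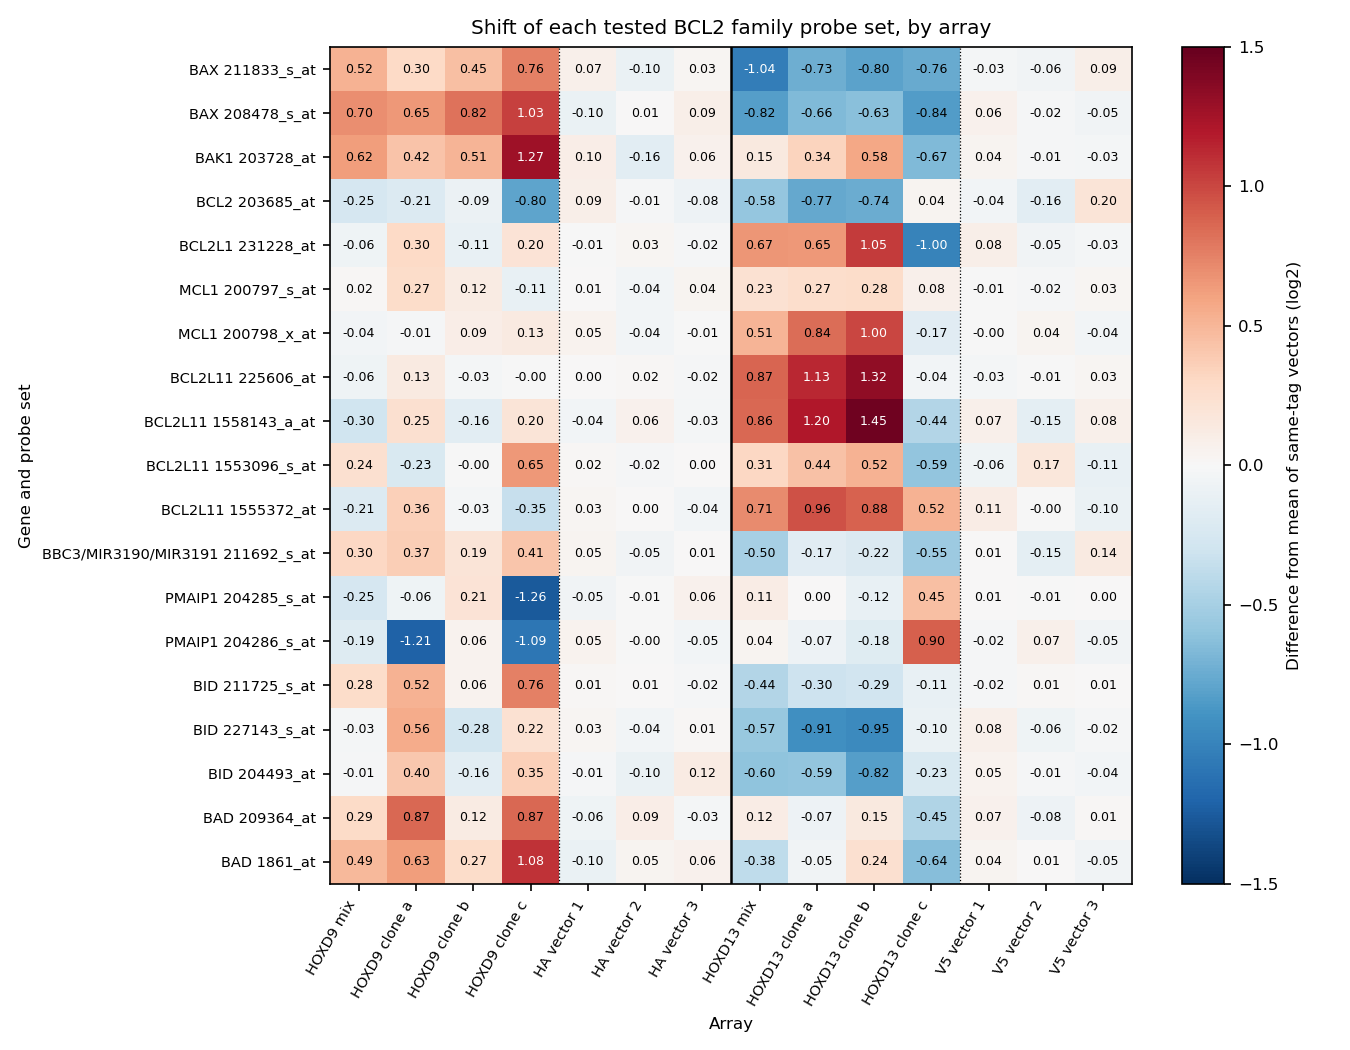
Each cell is the log2 value of 1 tested member probe set (rows, ordered by role) on 1 array (columns) minus the mean of the vector arrays of the same tag, printed and coloured from blue (lower) to red (higher). Both BAX rows are red in all 4 HOXD9 lines and blue in all 4 HOXD13 lines. HOXD13 clone c has the opposite sign to the other HOXD13 lines for BAK1, BCL2, BCL2L1, MCL1 200798_x_at and every BCL2L11 row but 1555372_at.

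BAX, which lies dormant in the cytosol until it inserts into the mitochondrial membrane, was read by a pair of probe sets. The first, 208478_s_at, stood at 7.36, 7.31, 7.48 and 7.69 in the HOXD9 mix and clones a, b and c, against 6.56, 6.67 and 6.75 on HA vector arrays. It stood at 7.14, 7.31, 7.34 and 7.12 in the HOXD13 lines in that order, against 8.03, 7.95 and 7.92 in V5 vectors. Every HOXD9 line was thus above every HA vector, and every HOXD13 line below every V5 vector, with no overlap in either comparison. The log2 fold change was 0.80 with HOXD9 (SE 0.11, 1.74-fold higher, adjusted p = 0.0292) and -0.74 with HOXD13 (1.67-fold lower, adjusted p = 0.00287). In bulk RNA such as this, fewer cells with a transcript and less of it per cell cannot be told apart.

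The other BAX probe set, 211833_s_at, read 7.71, 7.50, 7.64 and 7.95 in the HOXD9 mix and clones a, b and c, against 7.27, 7.09 and 7.22 on HA vector arrays. In the HOXD13 mix and clones a, b and c it read 7.41, 7.71, 7.65 and 7.69, against 8.42, 8.39 and 8.54 in V5 vectors. Neither pair of groups overlapped here either. It fell by 0.83 on the log2 scale with HOXD13 (SE 0.12, 1.78-fold lower, adjusted p = 0.00241), whereas with HOXD9 its log2 fold change of 0.51 did not pass (adjusted p = 0.165). The effects differed between the factors for both probe sets, by -1.54 for 208478_s_at (95% interval -1.88 to -1.20, adjusted p = 0.00054) and by -1.34 for 211833_s_at (95% interval -1.71 to -0.97, adjusted p = 0.00216). The HOXD13 and difference calls of BAX passed under every alternative tried. The HOXD9 call of 208478_s_at was lost when any array other than HOXD9 clone a, HOXD13 clone b or HOXD13 clone c was left out. Its adjusted p rose to 0.286 without HA vector 1, while the log2 fold change stayed between 0.72 and 0.85. That call was also lost in the fit of only the 7 arrays of the HA tag (adjusted p = 0.215). Array weights by group (adjusted p = 0.0667) and an intensity trend with a robust prior (adjusted p = 0.0542) lost it too.

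**Figure D2:**
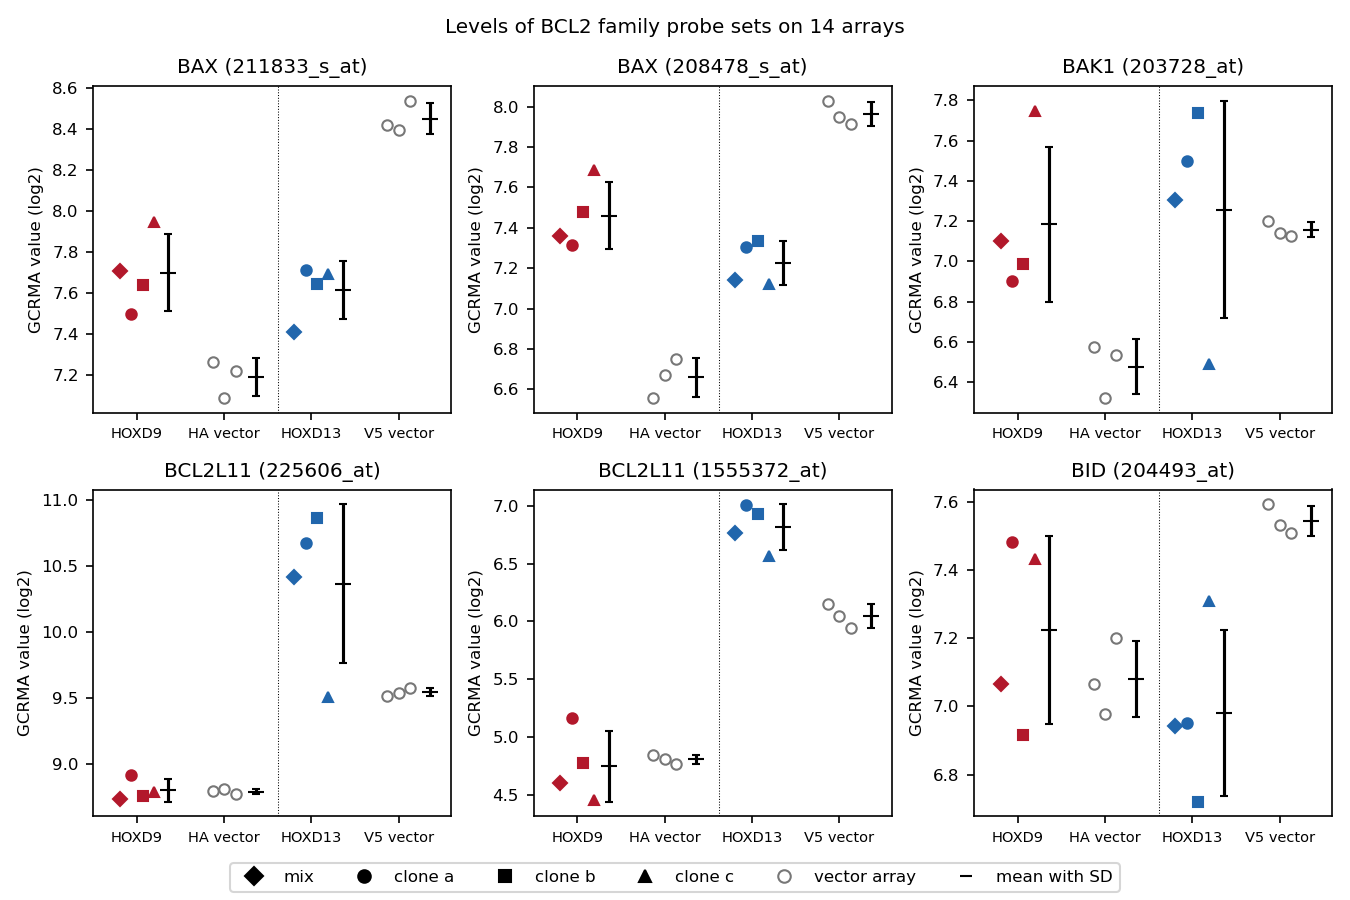
GCRMA values (log2, vertical axes that do not start at 0) of 6 member probe sets on the 14 arrays, with filled symbols for HOX lines, open circles for vectors and bars for the mean with SD (n = 4 lines or 3 vectors). BAX separates lines from vectors in both comparisons, and BCL2L11 225606_at shows HOXD13 clone c at 9.51, beside V5 vectors between 9.52 and 9.58.

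The RefSeq promoter window of BAX is shown because its HOXD13 and difference calls were the most stable of the member calls. It covers 250 bases before to 50 bases after the gene start at chr19:48954625-48954924 on the plus strand (GRCh38.p14), and capitals mark each CACGTG, the E-box read by MYC and related factors.
BAX: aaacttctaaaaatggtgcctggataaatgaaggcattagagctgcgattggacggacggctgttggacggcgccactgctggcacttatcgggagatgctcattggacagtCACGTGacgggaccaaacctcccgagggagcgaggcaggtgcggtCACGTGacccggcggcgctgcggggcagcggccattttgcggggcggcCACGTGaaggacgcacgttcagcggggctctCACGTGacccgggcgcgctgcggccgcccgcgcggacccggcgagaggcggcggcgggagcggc
The 4 matches begin 138, 93, 45 and 14 bases before the start. Across 35116 RefSeq windows of this length, 7.26% held CACGTG at least once and 5 windows held 4 or more. The window also holds 1 match to TTTAT, a core read by posterior HOX proteins, 227 bases before the start on the opposite strand, a motif found in 34.9% of all windows. The motifs were chosen after these sequences had been seen and were searched on both strands, and a match describes letters, not a bound site.

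BAK1, the effector that sits in the mitochondrial membrane from the outset, was read by 203728_at. It stood at 7.10, 6.90, 6.99 and 7.75 in the HOXD9 mix and clones a, b and c, against 6.57, 6.32 and 6.54 on HA vector arrays. All 4 HOXD9 lines lay above the HA vectors, clone c furthest, yet the log2 fold change of 0.71 (SE 0.26) did not pass (adjusted p = 0.189). In the HOXD13 mix and clones a, b and c it stood at 7.31, 7.50, 7.74 and 6.49, against 7.20, 7.14 and 7.13 in V5 vectors. Clone c was below the V5 vectors and the other HOXD13 lines above them, and the mean difference of 0.10 did not pass (adjusted p = 0.861). With HOXD13, BAX thus lay below the vectors in all 4 lines, while BAK1 had no common direction because of clone c. The effectors were not tested against each other.

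No survival gene was called in either comparison. Of all probe sets, 0.0202% were called higher and 0.0101% lower with HOXD9, and 2.49% and 6.19% with HOXD13. Of the 4 tested probe sets of the survival genes, 2 had an unadjusted p under 0.05 with HOXD13 and none with HOXD9. The shares of all probe sets were 25.1% and 20.6%. BCL2, the founding member of the family, was read by 203685_at at 5.70, 5.74, 5.86 and 5.15 in the HOXD9 mix and clones a, b and c, against 6.04, 5.94 and 5.87 on HA vector arrays. In the HOXD13 mix and clones a, b and c it was 5.99, 5.80, 5.83 and 6.60, against 6.53, 6.41 and 6.76 in V5 vectors. All HOXD9 lines were below the HA vectors, by a narrow margin for clone b, while HOXD13 clone c lay among the V5 vectors and the other HOXD13 lines below them. The log2 fold changes were -0.34 with HOXD9 (adjusted p = 0.336) and -0.51 with HOXD13 (adjusted p = 0.137). The remaining BCL2 probe sets did not pass the filter: 207005_s_at and 203684_s_at stayed under a log2 value of 3 on all 14 arrays, and 207004_at reached at most 4.25.

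BCL2L1 encodes BCL-XL and, by alternative splicing, the death-promoting BCL-XS, which these probe sets were not used to separate. Its 1 tested probe set, 231228_at, read 6.57, 6.56 and 6.96 in the HOXD13 mix and clones a and b but 4.90 in clone c, against 5.99, 5.86 and 5.88 in V5 vectors. Clone c was the lowest and the other HOXD13 lines the highest of the 7 arrays, and the mean difference of 0.34 carried an SE of 0.35 (adjusted p = 0.599). In HOXD9 lines it lay between 5.13 and 5.55, against 5.23 to 5.28 in HA vectors, a log2 fold change of 0.08. A dimmer probe set that missed the filter, 212312_at, had 4.98, 5.55, 5.58 and 4.09 in the HOXD13 mix and clones a, b and c, against 4.76, 4.68 and 4.67 on V5 vector arrays, with clone c again the lowest.

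MCL1, a survival protein that is made and destroyed quickly, was read by 200797_s_at at 12.12, 12.16, 12.17 and 11.97 in the HOXD13 mix and clones a, b and c, against 11.88, 11.87 and 11.92 on V5 vector arrays. The groups did not overlap, but the log2 fold change was only 0.22 (95% interval -0.01 to 0.44, adjusted p = 0.216). The second, 200798_x_at, whose name marks probes that can match other transcripts, read 9.05, 9.37, 9.54 and 8.37 in the same order, against 8.54, 8.57 and 8.50 in V5 vectors, a log2 fold change of 0.55 (adjusted p = 0.12). In HOXD9 lines both lay near the HA vectors, with log2 fold changes of 0.08 and 0.04. The other 4 MCL1 probe sets did not pass the filter; 214057_at reached 5.35 in the HOXD13 mix, and 200796_s_at and 227175_at stayed under 3 on all arrays.

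**Figure D3:**
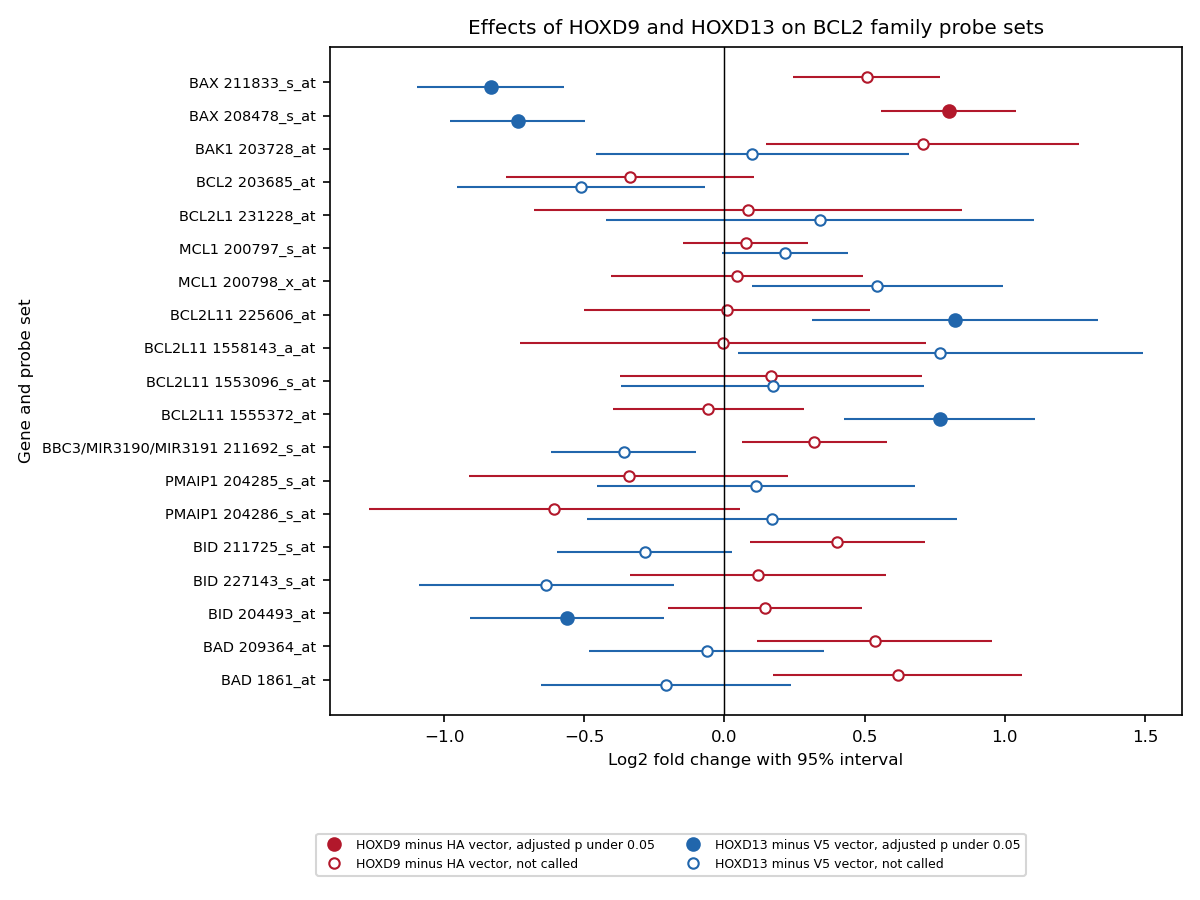
Log2 fold changes of the 19 tested member probe sets with their 95% intervals from limma, HOXD9 minus HA vector in red and HOXD13 minus V5 vector in blue. Filled points passed an adjusted p under 0.05: 1 with HOXD9 and 5 with HOXD13.

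Among the BH3-only genes, 2 BCL2L11 probe sets were called higher and 1 of BID lower with HOXD13, and none of BBC3, PMAIP1 or BAD. Of all probe sets, 2.49% were called higher and 6.19% lower. BCL2L11 encodes BIM, which binds all survival proteins and can engage BAX directly. Its probe set 225606_at stood at 10.42, 10.68 and 10.87 in the HOXD13 mix and clones a and b and at 9.51 in clone c, against 9.52, 9.54 and 9.58 in V5 vectors. The first 3 lines were above every vector and clone c was just below them all, so the groups overlapped. The mean log2 fold change was 0.82 (SE 0.24, 1.77-fold higher, adjusted p = 0.0483). The only BCL2L11 probe set in which all 4 HOXD13 lines exceeded the V5 vectors was 1555372_at, with 6.76, 7.01, 6.93 and 6.57 in the HOXD13 mix and clones a, b and c, against 6.15, 6.04 and 5.95 on V5 vector arrays. That is a log2 fold change of 0.77 (SE 0.16, 1.70-fold higher, adjusted p = 0.0121).

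Both other tested BCL2L11 probe sets had clone c below the V5 vectors and neither passed. For 1558143_a_at the HOXD13 mix and clones a, b and c read 8.07, 8.41, 8.66 and 6.77, against 7.28, 7.06 and 7.29 in V5 vectors, a log2 fold change of 0.77 (adjusted p = 0.172). For 1553096_s_at they read 6.68, 6.81, 6.90 and 5.79, against 6.31, 6.55 and 6.26 in V5 vectors, a log2 fold change of 0.17 (adjusted p = 0.73). A further probe set, 222343_at, missed the filter and was 4.14 and 3.97 in HOXD13 clones a and b, while the mix and clone c were 2.44 and 2.42, against 2.43 to 2.45 in V5 vectors. In HOXD9 lines 225606_at lay between 8.73 and 8.92, against 8.77 to 8.81 in HA vectors, and the 4 tested probe sets had log2 fold changes from -0.06 to 0.17. Only for 1555372_at did the factors' effects differ in the direct test, by 0.83 (95% interval 0.34 to 1.31, adjusted p = 0.045); for 225606_at the difference of 0.81 did not pass (adjusted p = 0.166). Probe set 1555372_at reached the filter value of 5 on 8 arrays, all 7 of the V5 tag and HOXD9 clone a, so it was tested through the V5 tag set. Its values were 4.46 to 5.17 in HOXD9 lines, against 4.77 to 4.84 in HA vectors, mostly under that value, and the HOXD9 side of the difference rests on them.

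These BCL2L11 calls were close to the threshold. The HOXD13 call of 225606_at was kept without HOXD13 clone c, where the log2 fold change was 1.11 (adjusted p = 2.13e-05), and without HOXD9 clone c, and was lost without any other single array (adjusted p up to 0.151, without V5 vector 1). That of 1555372_at was lost without V5 vector 2 or V5 vector 3 (adjusted p = 0.0577 and 0.0705), and its difference call without any array but HOXD9 clones a and b and HOXD13 clone c (adjusted p up to 0.126).

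The BCL2L11 window, shown because 2 of its probe sets rose while those of BAX fell, lies at chr2:111120664-111120963 on the plus strand (GRCh38.p14), with capitals on GTAAACA, the reverse complement of the FOXO motif TGTTTAC. FOXO factors are known activators of this gene.
BCL2L11: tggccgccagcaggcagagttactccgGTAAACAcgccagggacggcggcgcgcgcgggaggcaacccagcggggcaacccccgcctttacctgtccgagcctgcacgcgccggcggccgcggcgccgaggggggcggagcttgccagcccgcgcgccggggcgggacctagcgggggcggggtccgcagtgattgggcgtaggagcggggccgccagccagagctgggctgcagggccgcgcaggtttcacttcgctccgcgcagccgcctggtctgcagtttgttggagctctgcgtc
The match begins 223 bases before the start, and 3.42% of all windows hold that motif. No CACGTG or TTTAT match was found in this window, but most windows lack each of them: 7.26% of all windows hold CACGTG and 34.9% hold TTTAT.

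**Figure D4:**
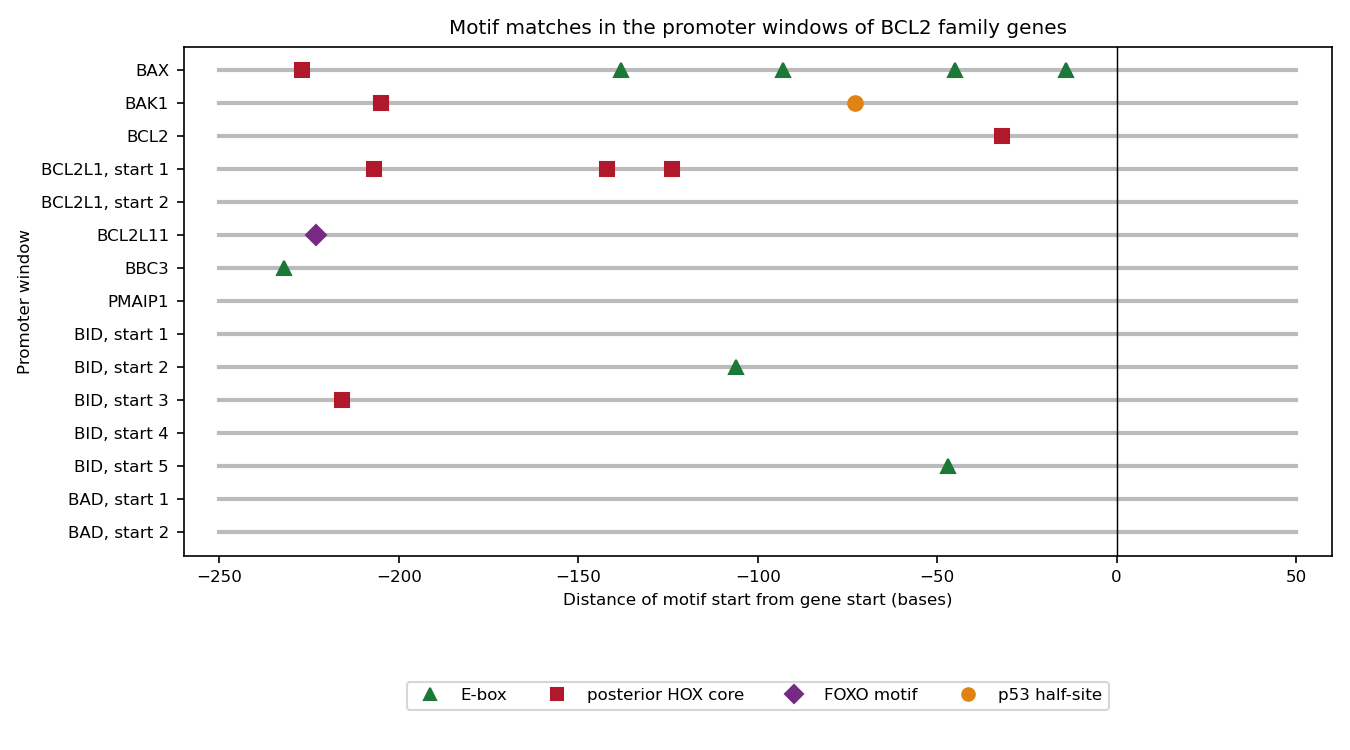
Positions of motif matches (symbols) in the 15 RefSeq promoter windows of 9 members (rows), as bases from the gene start at 0; genes with several starts have a row for each, and MCL1 has no row. BAX carries 4 E-box matches, BCL2L1 start 1 carries 3 TTTAT matches, and BCL2L11 carries the only FOXO motif match.

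BID links death receptors to mitochondria, since caspase-8 cuts it into an active fragment. Its probe set 204493_at read 6.94, 6.95, 6.72 and 7.31 in the HOXD13 mix and clones a, b and c, against 7.59, 7.53 and 7.51 on V5 vector arrays. All HOXD13 lines were below all V5 vectors, clone c by the least, and the log2 fold change was -0.56 (SE 0.16, 1.48-fold lower, adjusted p = 0.046). Clone c was again the line nearest to the vectors in 227143_s_at, at 8.33, 7.99, 7.95 and 8.80 in the HOXD13 mix and clones a, b and c, against 8.98, 8.84 and 8.88 on V5 vector arrays, and in 211725_s_at, at 8.44, 8.58, 8.60 and 8.78, against 8.86, 8.90 and 8.89 in V5 vectors. Neither of these passed, with log2 fold changes of -0.64 (adjusted p = 0.0795) and -0.28 (adjusted p = 0.242), although neither overlapped with its vectors. The call of 204493_at was kept only without HOXD13 clone c or without HOXD9 clone a, b or c, and was lost without each of the other arrays (adjusted p up to 0.158, without V5 vector 1).

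With HOXD9, 211725_s_at of BID was 8.68, 8.92, 8.46 and 9.16 in the mix and clones a, b and c, against 8.41, 8.41 and 8.38 on HA vector arrays, above in all 4 lines but not called (log2 fold change 0.40, adjusted p = 0.187). The other BID probe sets overlapped with the HA vectors, with log2 fold changes of 0.12 and 0.14. No BID probe set passed the test of the difference between the factors (adjusted p = 0.0629 to 0.151).

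BAD, which binds BCL2 and BCL-XL when survival signals are withdrawn, was above the HA vectors in every HOXD9 line on both tested probe sets without passing the test. On 209364_at the HOXD9 mix and clones a, b and c read 8.27, 8.85, 8.10 and 8.85, against 7.92, 8.07 and 7.95 in HA vectors, and on 1861_at 7.08, 7.21, 6.86 and 7.67, against 6.48, 6.63 and 6.65 in HA vectors. Clone b was the lowest line on both, and the log2 fold changes were 0.54 (adjusted p = 0.188) and 0.62 (adjusted p = 0.178). With HOXD13 they were -0.06 and -0.21, and lines and vectors overlapped. The remaining BAD probe set, 232660_at, did not pass the filter and stayed between 3.57 and 4.74 on all arrays.

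PMAIP1 encodes NOXA, which binds MCL1 and promotes its destruction. Its probe set 204286_s_at was 11.04, 10.02, 11.29 and 10.14 in the HOXD9 mix and clones a, b and c, against 11.28, 11.23 and 11.18 on HA vector arrays, and 204285_s_at was 12.34, 12.53, 12.80 and 11.34, against 12.54, 12.59 and 12.66 in HA vectors. Clone c was low on both and clone a on 204286_s_at alone, and neither log2 fold change passed (-0.61 with adjusted p = 0.268, and -0.34 with adjusted p = 0.432). In HOXD13 lines the highest line on both was clone c, at 13.33 on 204286_s_at and 13.90 on 204285_s_at, against 12.38 to 12.50 and 13.45 to 13.46 in V5 vectors. The other 3 HOXD13 lines lay within 0.18 of the vector mean on both.

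The probe set annotated to BBC3, 211692_s_at, is annotated to MIR3190 and MIR3191 as well, so its level cannot be given to 1 gene. It was 5.90, 5.97, 5.79 and 6.01 in the HOXD9 mix and clones a, b and c, against 5.64, 5.55 and 5.60 on HA vector arrays. In the HOXD13 mix and clones a, b and c it was 5.81, 6.15, 6.10 and 5.77, against 6.33, 6.17 and 6.46 in V5 vectors. The lines were above their vectors with HOXD9 and below them with HOXD13, without overlap, though HOXD13 clone a lay just under the lowest V5 vector. Neither effect passed on its own (log2 fold change 0.32, adjusted p = 0.192, and -0.36, adjusted p = 0.0809), and their difference of -0.68 did (95% interval -1.04 to -0.31, adjusted p = 0.0341). That call was lost without any 1 of the 6 vector arrays or the HOXD13 mix (adjusted p up to 0.11).

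Separation of lines from vectors was common among all probe sets and is read against that. With HOXD9, 7 of the 19 member probe sets had all 4 lines above the vectors and 1 had all below. The shares of all probe sets tested were 18% and 14.2%. With HOXD13 it was 2 above and 6 below, against 8.6% and 18.1%. Those above with HOXD9 were both BAX, both tested BAD, BAK1, BID 211725_s_at and the probe set shared by BBC3 and the microRNA genes, and the 1 below was BCL2. Only 1 of these 8 passed the adjusted test.

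HOXD13 clone c stood apart from its sister lines for members of all 3 roles. Shifts, meaning an array's log2 value minus the mean of its vectors, were 0.87, 1.13 and 1.32 for BCL2L11 225606_at in the HOXD13 mix and clones a and b, and -0.04 in clone c. For BCL2L1 231228_at they were 0.67, 0.65 and 1.05 in the mix and clones a and b, while clone c was lower than every V5 vector. For BAX clone c moved with its sister lines: its shift was -0.76 on 211833_s_at, against -1.04 to -0.74 in the other lines, and -0.84 on 208478_s_at, the lowest of the 4 lines and just below the mix at -0.82. Without clone c, 10 member probe sets were called with HOXD13 in place of 5, among them BCL2L11 1558143_a_at (log2 fold change 1.17), BCL2L1 (0.79), MCL1 200798_x_at (0.78), BCL2 (-0.70) and BID 227143_s_at (-0.81), while 6496 of all probe sets were called in place of 1721. That fit pools the spread over all groups, and with HOXD9 it called BAK1 (adjusted p = 0.0495) and BAX 211833_s_at (adjusted p = 0.0441) as well, while 787 of all probe sets were called with HOXD9 in place of 6.

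A sign of RNA quality differed along the same lines. The difference between the 3′ and 5′ control probe sets of ACTB, minus its mean in the vectors, was -0.10, -0.23, -0.41 and 0.57 in the HOXD13 mix and clones a, b and c, against -0.04 to 0.03 in V5 vectors, so that its order over the 4 lines was the reverse of that of the BCL2L11 225606_at shifts. In HOXD9 lines it was -0.07, -0.62, 0.03 and -0.23 in the mix and clones a, b and c, against -0.04 to 0.04 in HA vectors. With this difference as a covariate, the HOXD13 effects were 0.78 for BCL2L11 225606_at (adjusted p = 0.00144) and 0.75 for 1555372_at (adjusted p = 0.00163). That fit called more probe sets in general, 4454 of all with HOXD13 in place of 1721. The median shift of the 6 tested HEK293 markers was 0.07, 0.14, 0.26 and -0.41 in the HOXD13 mix and clones a, b and c. The part of either in the departures of clone c was not tested.

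Genes that act around the family were described from lists, each gene by its brightest probe set. By that reading 9 members were tested as genes: none was called with HOXD9 (4 at an unadjusted p under 0.05), against 0.00966% of all 10349 genes (23% unadjusted), and with HOXD13 BCL2L11 was called higher and BAX lower, against 2.45% and 7.03% of all genes. With the mean of a gene's probe sets in place of the brightest, the BCL2L11 call was lost (log2 fold change 0.63, adjusted p = 0.0747) and BAX alone was called. Their median by the brightest probe set log2 fold change was 0.08 with HOXD9 and 0.10 with HOXD13, against medians over all genes of 0.08 and -0.03. No gene of any list around the family was called with HOXD9. At an unadjusted p under 0.05 there were 1 of 9 other BCL2 homologues, 4 of 11 apoptosome and caspase genes, 2 of 5 inhibitor of apoptosis genes, 2 of 7 death receptor genes, 8 of 16 genes of p53 and its other targets, 3 of 14 other transcription factors and 1 of 15 turnover and partner genes. With HOXD13 none of the first 4 of these lists had a called gene, and 2, 1, 0 and 1 of their genes had an unadjusted p under 0.05, as did 4 of the p53 genes, 7 of the other transcription factors and 2 of the turnover and partner genes, against 26.5% of all genes.

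Of 15 genes of BCL2 family turnover and mitochondrial partners, 1 was lower and none higher with HOXD13, near the 7.03% and 2.45% of all genes. This was MTCH2, the mitochondrial receptor for the active BID fragment, at 9.51, 9.55, 9.64 and 9.69 in the HOXD13 mix and clones a, b and c, against 10.19, 10.26 and 10.28 on V5 vector arrays. It fell by 0.64 (adjusted p = 0.0106). Of 16 genes of p53 and its other targets, 1 was lower and none higher, again near the shares of all genes: SESN1, a stress protein, fell by 0.72 (adjusted p = 0.0308), with clone c at 9.45 nearest to the V5 vectors (9.56 to 9.58). BAX, BBC3 and PMAIP1 are themselves known targets of p53.

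Of 14 other transcription factors known to act on family genes, 1 was higher and 1 lower with HOXD13, against 2.45% and 7.03% of all genes. MYC, which promotes both growth and apoptosis, was 11.87, 12.21 and 12.22 in the HOXD13 mix and clones a and b but 9.64 in clone c, against 9.82 to 9.85 in V5 vectors (log2 fold change 1.65, adjusted p = 0.0448), the same split of the lines as for BCL2L11 225606_at. DDIT3 (CHOP), a factor of the stress response of the endoplasmic reticulum that is known to raise BCL2L11, was between 9.62 and 10.05 in HOXD13 lines, against 10.32 to 10.41 in V5 vectors (-0.58, adjusted p = 0.0113). All 4 HOXD13 lines had less DDIT3 than any V5 vector. In the test of the difference between the factors, 1 of 11 apoptosome and caspase genes passed, AIFM1 (-0.72), and 1 of 16 p53 genes, DDB2 (-0.65). So did 2 of 14 other transcription factors, DDIT3 (-0.84) and STAT5B (-0.74), and 1 of 15 turnover and partner genes, MTCH2 (-0.77). None passed of 9 other BCL2 homologues, 5 inhibitor of apoptosis genes and 7 death receptor genes. No list gene passed in the other direction, against 7.92% of all genes called either way. Of all probe sets, 5.5% were called lower and 1.06% higher in this test.

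**Figure D5:**
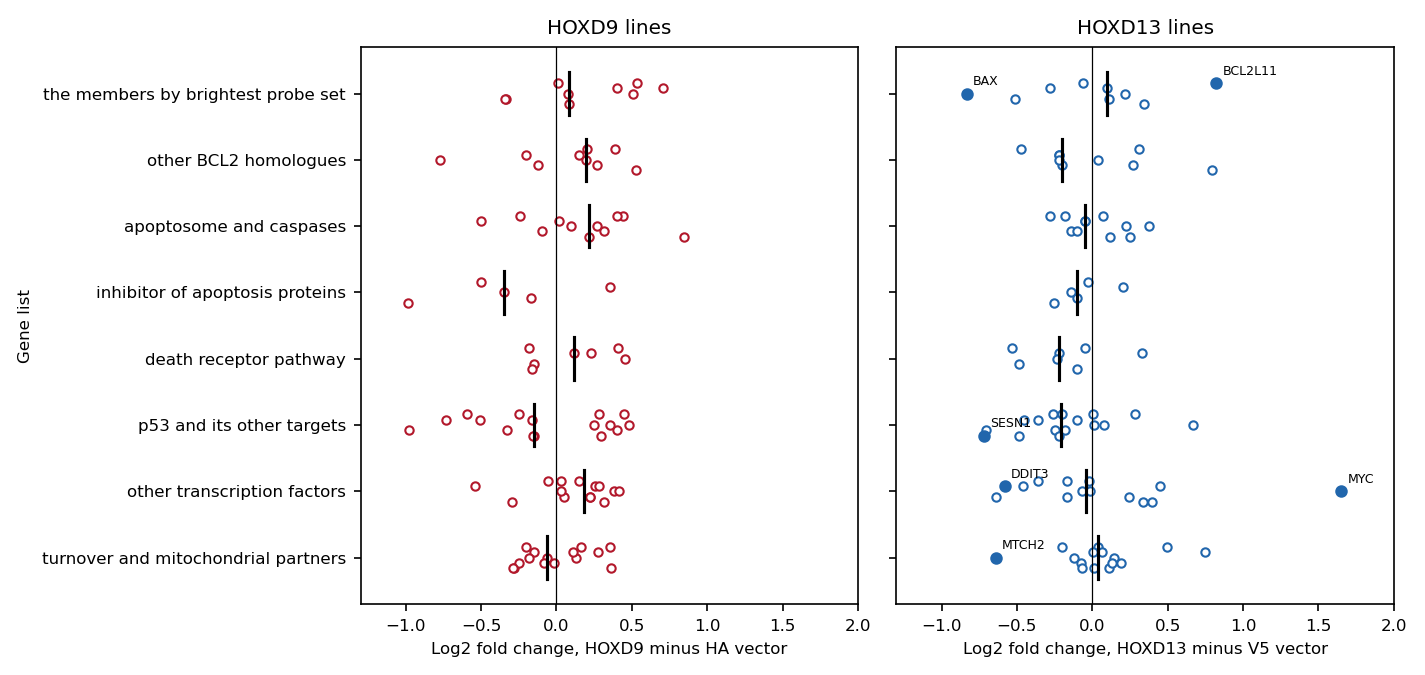
Log2 fold changes of the tested genes of the family and of 7 lists around it (rows), with HOXD9 on the left and HOXD13 on the right. Each point is a gene by its brightest probe set, filled and named where called, and the black bar is the median of the list; with HOXD9 no point is filled.

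The genes outside the family whose shifts over the 14 arrays were most like those of BAX 211833_s_at were CRTAP (Pearson r = 0.985), EIF3K (0.984) and CREB3L2 (0.98). For BCL2L11 225606_at they were BAIAP2 (0.993), PCDH17 (0.992) and EFNB2 (0.991). These coefficients describe 14 arrays that share lines and normalization, and the BCL2L11 set follows the split between clone c and the other HOXD13 lines.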

How the data were processed

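RNA of HEK293 cells was measured on 14 Affymetrix arrays. Per the submitters' processing notes, the authors deposited log2 values made with GCRMA, which corrects background from probe sequence, equalises the distributions of arrays and gives 1 value per probe set; its version is not given in the sources used here. Sorted values agreed to within 0.00102 in the HA tag set and 0.00195 in the V5 tag set, and the 75th percentile was 6.27 and 7.02, so the sets were normalized separately. Undetected transcripts lie near a log2 value of 2. The arrays' number limits the precision.

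Probe sets were named from the platform annotation of 2016 (41097 with 1 symbol, 1801 with several, 11777 with none listed), and 41043 matched RefSeq GRCh38.p14 by gene ID. After leaving out 62 controls, a probe set was tested at a value of at least 5 on at least 3 of 14 arrays. limma 3.58.1 in R 4.3.3 (lmFit, eBayes) fitted 4 group means, with 10 residual and 3.01 prior degrees of freedom. Tests were two-sided, and p-values were adjusted by Benjamini-Hochberg over all 19816 probe sets, or over 10349 genes read by their brightest probe set. Intervals are 95% and not adjusted. All member probe sets are named, and in each other list up to 3 called genes per direction and comparison. Not described above are BCL2L1 215037_s_at and 206665_s_at, MCL1 214056_at, and BCL2L11 1553088_a_at and 208536_s_at. These missed the filter and reached at most 3.56. Software also included the R package data.table (release 1.17.8), Python 3.11.15, pandas 2.3.3 and matplotlib 3.10.9. The p53 half-site was searched as RRRCWWGYYY, where R is A or G, W is A or T and Y is C or T. Of all windows, 6.63% hold it. The code was tested on simulated data with independent arrays and 1 SD per probe set for all groups. The HOX lines here are not independent and varied more than the vectors, which that test does not cover. The members, lists and settings were chosen with earlier results of these data known. Alternatives were fits of 7 arrays, array weights, other scalings, filters, units and priors, an RNA quality covariate, and each array left out.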

Additional observations from a re-analysis of the deposited data

Results flagged for a closer look

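The effects of the HOX genes on a member differed by the test of the difference itself (HOXD13 effect minus HOXD9 effect, limma) in 4 probe sets. BAX 208478_s_at differed by -1.54, with a mean of 7.23 in HOXD13 lines against 7.96 in V5 vectors and of 7.46 in HOXD9 lines against 6.66 in HA vectors. BAX 211833_s_at differed by -1.34, with 7.62 in HOXD13 lines against 8.45 in V5 vectors and 7.70 in HOXD9 lines against 7.19 in HA vectors. Probe set 211692_s_at, shared by BBC3, MIR3190 and MIR3191, differed by -0.68. BCL2L11 1555372_at differed by 0.83, with 6.82 in HOXD13 lines against 6.05 in V5 vectors and 4.75 in HOXD9 lines against 4.81 in HA vectors; the means of the HA tag lie under the filter value of 5, which this probe set met through the V5 tag set. The tag sets were normalized apart and each difference is one of effects within a set. In none of the 38 groups of 4 lines tested did the highest or lowest line lie far enough from the others to exceed Dixon's 95% critical value of 0.829.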

How the results depend on the processing

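Of 42 member results (19 with each factor and the 4 called differences), 33 changed sign under no alternative run, though PMAIP1 204285_s_at with HOXD13 was 0 without HOXD13 clone c, and of the 10 called results 4 (both BAX probe sets with HOXD13 and in the difference) stayed called throughout. Member probe sets called numbered 1 with HOXD9, 5 with HOXD13 and 4 in the difference, of 6, 1721 and 1299 probe sets in all. With only the 7 arrays of a tag they were 0 and 3, of 1 and 1181 in all. Without the filter they were 3 with HOXD13 and 2 in the difference, of 1112 and 735 in all. Array weights by group gave 0 with HOXD9, 7 with HOXD13 and 6 in the difference, of 4, 2898 and 1899 in all. An intensity trend with a robust prior gave 0 with HOXD9 and 2 in the difference, of 5 and 1290 in all. The ACTB covariate gave 9 with HOXD13 and 9 in the difference, of 4454 and 3149 in all. Leaving out 3 arrays of deviating ACTB difference, chosen after seeing the data, gave 10 and 11, of 5761 and 3444 in all. Leaving out 1 array at a time gave 0 to 3 with HOXD9, 2 to 10 with HOXD13 and 2 to 11 in the difference. Each result that follows was called in none of the settings in which its sign turned. With the ACTB covariate MCL1 200798_x_at was -0.13, BCL2L11 225606_at -0.23 and BCL2L1 231228_at -0.28 with HOXD9. Without the 3 arrays, BCL2L11 225606_at was -0.031 and BID 227143_s_at -0.027 with HOXD9, and PMAIP1 204286_s_at was -0.018 and BAD 209364_at 0.023 with HOXD13. Over the 14 fits without 1 array, the log2 fold change with HOXD9 ranged from -0.20 to 0.040 for BCL2L11 1555372_at, -0.088 to 0.095 for 1558143_a_at, -0.031 to 0.032 for 225606_at and -0.027 to 0.25 for BID 227143_s_at. With HOXD13 it ranged from -0.060 to 0.35 for BAK1 203728_at, -0.073 to 0.29 for PMAIP1 204286_s_at and -0.14 to 0.065 for BAD 209364_at.

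Over all probe sets, leaving out 1 array gave 1 to 787 calls with HOXD9 (6 in the full fit), 371 to 6496 with HOXD13 (1721) and 340 to 3688 in the difference (1299). The cause of these changes was not tested. No paired analysis was possible because the HOX lines (mix, a, b, c) and the vectors (1 to 3) share no replicate numbers.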
